A study of Mus musculus with 16 samples.

Results

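Among the 55421 genes of the count table, 37 genes of Kupffer cells and other macrophages were followed through liver regeneration, with and without the histone chaperone HIRA in hepatocytes. They were taken by gene name, and all 37 were found in the table and passed the filter on low counts. They comprised 5 genes of resident Kupffer cells (Clec4f, Vsig4, Cd5l, Marco and Timd4), 28 genes of macrophages in general and 4 genes of MHC class II (Cd74, H2-Aa, H2-Ab1 and H2-Eb1).

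Poly-A RNA had been sequenced from whole livers of male C57BL/6 mice in 4 groups of 4 libraries. Livers with HIRA (control) and livers without it in hepatocytes (HIRA KO) were each sampled before and after regeneration. Every mouse received AAV8 at 6 months of age, and a partial hepatectomy followed 4 weeks later. In each group, 2 libraries came from Cre deletion (HIRA fl/fl mice given AAV8-Tbg-Cre, with wildtype mice given AAV8-Tbg-Cre as control) and 2 from CRISPR deletion (wildtype mice given AAV8-Tbg-saCAS9/U6-sgRNA-HIRA, with the sgRNA-Rosa26 virus as control). The resected left lateral and median lobes were the tissue before regeneration, and the liver that remained 5 days after resection was the tissue after it. Lobe, manner of collection and time therefore changed together and cannot be told apart. The Tbg promoter drives expression in hepatocytes, so that deletion was directed at hepatocytes and not at macrophages. All groups carried a Tbg-driven nuclease or recombinase, and none was without virus.

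Kupffer cells are the resident macrophages of the liver, held in its sinusoids, where they take up bacteria, dying cells and aged erythrocytes from the blood. They depend on signalling through the receptor CSF1R and on the transcription factor PU.1 (Spi1), and they carry surface receptors that few other macrophages share. When Kupffer cells are lost, blood monocytes enter the liver and can acquire the same receptors over time. MHC class II molecules present peptides to helper T cells and are made by macrophages, dendritic cells and B cells.

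Promoter sequence is shown for the 5 resident genes and for both class II genes listed in the RefSeq-derived promoter table (GRCm38.p6), because the results compare these groups. Each line gives the 160 bases upstream of the start site, 5′ to 3′ on the strand of the gene. Capitals mark GAGGAA, the core of PU.1 sites, or GATTGG, the core of the Y box of MHC class II promoters (an inverted CCAAT box), on either strand.
Clec4f, chr6:83656117-83656276, minus strand: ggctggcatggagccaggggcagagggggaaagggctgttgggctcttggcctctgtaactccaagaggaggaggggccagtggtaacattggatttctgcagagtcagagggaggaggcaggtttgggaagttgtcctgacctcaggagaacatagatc
Vsig4, chrX:96293439-96293598, minus strand: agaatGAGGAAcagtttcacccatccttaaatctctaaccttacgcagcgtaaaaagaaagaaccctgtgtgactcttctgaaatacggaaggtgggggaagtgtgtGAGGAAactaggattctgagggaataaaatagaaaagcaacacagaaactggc
Cd5l, chr3:87357721-87357880, plus strand: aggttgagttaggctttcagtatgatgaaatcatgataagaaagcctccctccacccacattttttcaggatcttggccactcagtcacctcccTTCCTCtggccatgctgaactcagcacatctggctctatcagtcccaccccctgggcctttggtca
Marco, chr1:120505025-120505184, minus strand: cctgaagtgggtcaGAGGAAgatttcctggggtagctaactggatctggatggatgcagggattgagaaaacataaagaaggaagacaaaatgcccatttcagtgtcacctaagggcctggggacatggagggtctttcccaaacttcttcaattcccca
Timd4, chr11:46810639-46810798, plus strand: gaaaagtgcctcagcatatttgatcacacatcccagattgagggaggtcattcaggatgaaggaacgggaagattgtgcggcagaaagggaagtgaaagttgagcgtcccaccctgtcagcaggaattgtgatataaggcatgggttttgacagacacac
H2-Aa, chr17:34287824-34287983, minus strand: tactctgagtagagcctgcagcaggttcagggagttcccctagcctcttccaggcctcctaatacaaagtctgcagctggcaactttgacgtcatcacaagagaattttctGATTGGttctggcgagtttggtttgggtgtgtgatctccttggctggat
H2-Eb1, chr17:34305707-34305866, plus strand: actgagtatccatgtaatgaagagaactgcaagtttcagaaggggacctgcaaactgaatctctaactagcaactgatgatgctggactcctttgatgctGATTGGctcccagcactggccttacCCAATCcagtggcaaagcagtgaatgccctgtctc

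Of the 37 genes, 27 had an entry in the promoter table, and the search covered the 250 bases upstream of the start on both strands. GAGGAA was present in 14 of the 27 (51.9%), against 23.3% of all 32851 promoters of the same length. It stood before 3 of the 5 resident genes, Vsig4, Cd5l and Marco, and before neither class II gene. GATTGG was present in 5 of the 27 (18.5%, against 14.6% of all promoters), among them both class II genes. TGANTCA, the AP-1 motif, was found in 4 members (14.8%, against 6.75%), and the E-box CATGTG in 5 (18.5%, against 12.3%). The E-box CACGTG was found in none, against 6.02% of all promoters. Members were counted by gene, with a match in any entry of the gene, and all promoters by entry. These are matches of letters in a fixed window, and the motifs searched do not overlap each other.

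Total counts per library ran from 15103059 to 21738619. The deletion was checked first on Hira itself. Before regeneration Hira stood at 5.62, 6.08, 6.18 and 5.21 CPM (counts relative to the TMM-scaled library size) in control and at 3.39, 3.13, 3.26 and 4.38 CPM in HIRA KO. After regeneration it stood at 5.51, 4.99, 5.89 and 6.29 CPM in control and at 3.17, 3.29, 3.04 and 4.56 CPM in HIRA KO. The groups did not overlap at either time, and the log2 fold changes were -0.70 ± 0.17 and -0.69 ± 0.17 (SE), with adjusted p of 0.129 and 0.0666 in edgeR's quasi-likelihood test. The libraries carry only a running number from 1 to 4 in each group, which is in no label and serves here as a name. On the second principal component of all libraries, HIRA KO libraries 1 and 2 lay at -47.4 and -36.6 before and at -40.2 and -36.2 after regeneration, whereas the other 12 libraries lay between -1.14 and 31.2. Where a call or a direction of a member changed without these 4 libraries, the value without them is given beside it or in the closing section.

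Measured per transcript length, the resting control liver held most RNA of antigen presentation, complement and resident genes. In control livers before regeneration, Cd74 (the invariant chain, which guides class II molecules through the cell) led the members at 55.5 ± 17.2 FPKM (fragments scaled to transcript length and library size, SD, n = 4). It was followed by C1qa at 44.9 ± 14.4, Clec4f at 35.7 ± 9.91, C1qc at 31.4 ± 10.3 and H2-Aa at 31.3 ± 9.83 FPKM. These neighbours differed by less than their spread. Among resident genes Cd5l stood at 30.4 ± 11.8, Vsig4 at 12.8 ± 5.01, Marco at 3.59 ± 2.03 and Timd4 at 2.16 ± 0.895 FPKM. The lowest levels were those of Trem2, Itgam, Gpnmb and Chil3, at 0.403 ± 0.259, 0.272 ± 0.172, 0.194 ± 0.0892 and 0.148 ± 0.183 FPKM. All 37 genes were detected in counts in every library.

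After regeneration, most macrophage genes rose in control livers, and all 5 resident genes were among them. Of the 37 members, 28 were higher and none lower at an adjusted p under 0.05 (edgeR, adjusted over 23018 genes), where 6.04% of all genes tested were higher and 4.17% lower (10.2% in all). An unadjusted p under 0.05 was found for 33 members, the 4 class II genes among them, and for 5415 of the 23018 genes tested. The median log2 fold change was 1.08 over the members and 0.0029 over all genes. In 29 members every library after regeneration lay above every library before it, against 10.0% of all genes, and in 1 member, H2-Ab1, every library lay below, against 8.98%. The members together took between 0.0426% and 0.0985% of the counts in control before and between 0.145% and 0.171% after. In a whole liver, a change in the number of cells of a type, up or down, and a change in RNA per cell cannot be told apart.

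The same held in HIRA KO livers. There 27 members rose and none fell, with 6.48% of all genes tested higher and 5.53% lower (12.0% in all), and 30 members and 6318 of all genes had an unadjusted p under 0.05. Without the libraries that stand apart 26 members were called higher in HIRA KO and 29 in control. In that fit 5543 of all genes in HIRA KO and 6491 in control had an unadjusted p under 0.05. All genes called in control, in either direction, were then 3784, against 2350 with all libraries. With all libraries the median log2 fold change in HIRA KO was 1.45 over the members and 0.0194 over all genes. In 27 members no library before regeneration reached the lowest one after it, against 8.61% of all genes, and in none was the opposite seen, against 7.45%. The members took between 0.0606% and 0.0917% of the counts before and between 0.176% and 0.202% after regeneration.

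**Figure D1:**
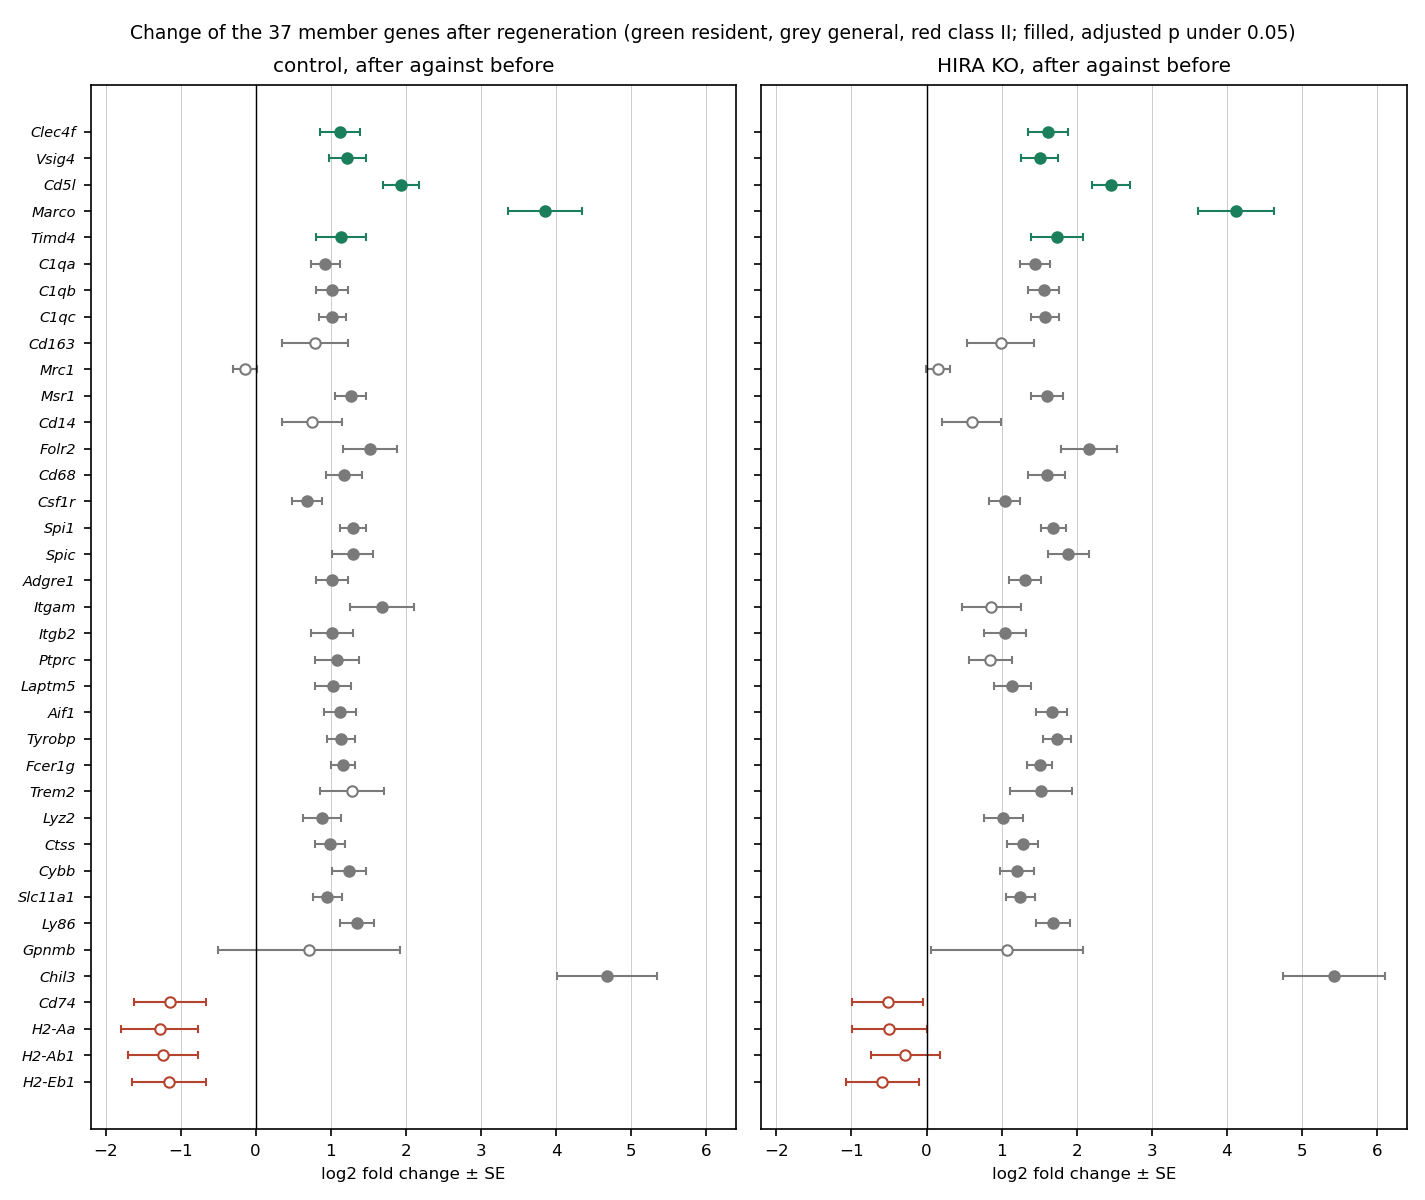
Log2 fold change after against before regeneration (x axis, ± SE, 4 libraries a group) of each of the 37 genes in control (left) and HIRA KO livers (right), with resident genes in green, general macrophage genes in grey and MHC class II genes in red, filled where the adjusted p is under 0.05. Resident genes lie at 1.12 or higher in both panels, Marco and Chil3 lie farthest to the right, and the 4 class II genes lie left of 0 with open symbols.

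Marco, a scavenger receptor for bacteria, showed the widest change of the resident genes. It stood at 10.1, 10.1, 13.6 and 1.78 CPM in control before and at 129, 151, 129 and 108 CPM after regeneration. In HIRA KO it stood at 10.5, 8.74, 3.67 and 4.26 CPM before and at 119, 78.6, 138 and 142 CPM after. Every library after regeneration lay above every library before it in both genotypes. The rise was 14.5-fold in control (log2 3.86 ± 0.50, adjusted p = 0.000622, edgeR) and 17.4-fold in HIRA KO (log2 4.12 ± 0.51, adjusted p = 0.000418). Without the libraries that stand apart the log2 value in HIRA KO was 5.13 (adjusted p = 0.00474).

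Cd5l, which encodes a secreted macrophage protein that binds lipids and microbes, came next. It stood at 79.3, 86.5, 106 and 34.6 CPM in control before and at 297, 286, 327 and 264 CPM after. In HIRA KO the values were 51.0, 52.9, 60.2 and 59.3 CPM before and 267, 248, 323 and 388 CPM after. Again no library before reached any library after, and the rise was 3.83-fold in control (adjusted p = 0.000219, edgeR) and 5.49-fold in HIRA KO (adjusted p = 4.55e-05).

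The receptors Clec4f, Vsig4 and Timd4 rose by smaller factors. Clec4f, a galactose-binding lectin of Kupffer cells, stood at 75.3, 83.8, 100.2 and 40.5 CPM in control before and at 166, 160.1, 187 and 141 CPM after. In HIRA KO it stood at 41.0, 41.2, 60.6 and 68.3 CPM before and at 127, 111, 197 and 213 CPM after. The groups did not overlap, and the rise was 2.18-fold (adjusted p = 0.0131, edgeR) and 3.07-fold (adjusted p = 0.00163). Vsig4, a receptor for complement C3 fragments, stood between 11.7 and 32.8 CPM in control before and between 39.9 and 57.5 CPM after, a rise of 2.33-fold (adjusted p = 0.00522). Its rise in HIRA KO was 2.85-fold (adjusted p = 0.00154), from 14.5 to 21.6 CPM before to 41.5 to 61.2 CPM after. Timd4, a receptor for phosphatidylserine on dying cells and a mark of long-lived resident macrophages, stood at 6.76, 7.15, 8.47 and 2.43 CPM in control before and at 14.0, 14.4, 14.0 and 12.2 CPM after. In HIRA KO it stood at 3.02, 4.00, 4.08 and 4.63 CPM before and at 9.06, 7.46, 15.4 and 20.5 CPM after. It did not overlap in either genotype, with a rise of 2.20-fold (log2 1.13 ± 0.33, adjusted p = 0.0401) and of 3.33-fold (log2 1.74 ± 0.34, adjusted p = 0.00475). The call of Timd4 in control held in 1 of 8 fits that left out a library, the one without control before library 3, and its adjusted p reached 0.0855 in the others.

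**Figure D2:**
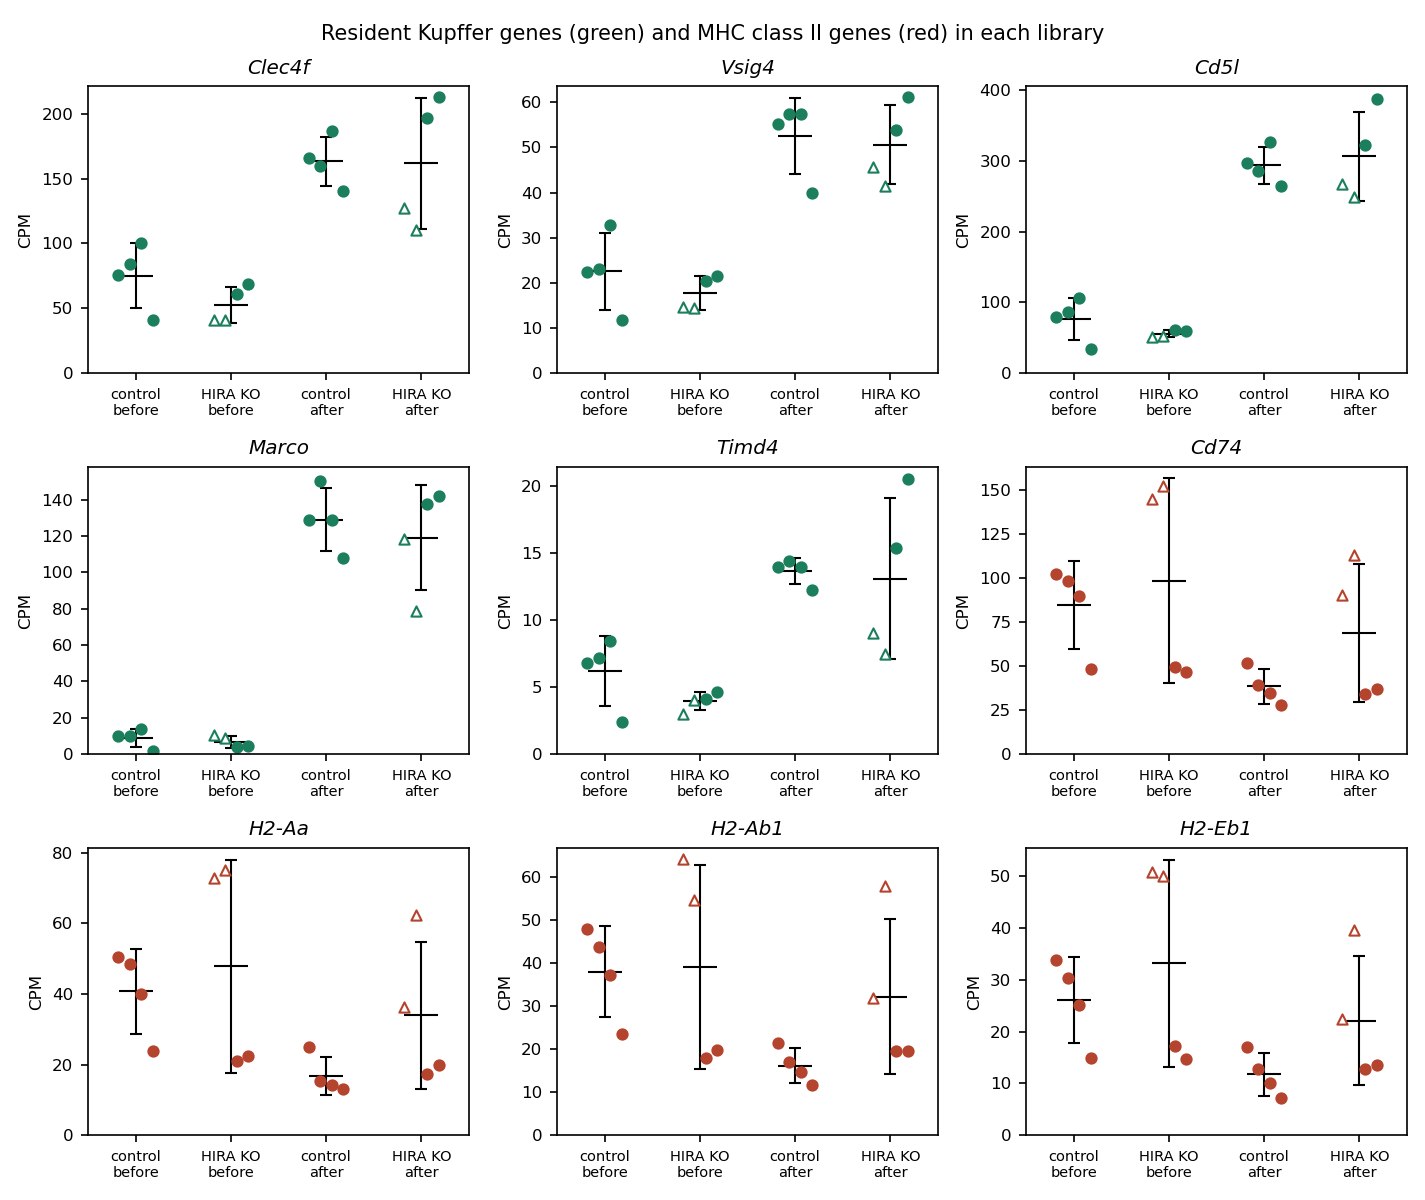
CPM (y axis) of the 5 resident Kupffer genes (green) and the 4 MHC class II genes (red) in each library of the 4 groups, with the mean and SD as black bars and HIRA KO libraries 1 and 2, which stand apart on the second principal component, as open triangles. Within each genotype the resident genes after regeneration lie above all libraries before it, the class II genes in control have lower means after than before with overlap in all but H2-Ab1, and the triangles lie highest for the class II genes at both times.

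Complement C1q, which tags immune complexes and dying cells, is made in the liver by macrophages from 3 genes. C1qc stood at 39.4, 42.5, 56.2 and 23.5 CPM in control before and at 85.1, 85.5, 88.0 and 69.6 CPM after. In HIRA KO it moved from 32.4, 28.8, 30.9 and 30.2 CPM to 77.5, 87.2, 94.6 and 106 CPM. C1qa, C1qb and C1qc rose by 1.90, 2.02 and 2.03-fold in control and by 2.73, 2.94 and 2.98-fold in HIRA KO, with adjusted p between 0.00208 and 0.00583 and between 0.000102 and 0.000352 (edgeR). The 3 genes were not separated from each other by their errors.

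Scavenger and uptake receptors divided. Folr2, a folate receptor of resident macrophages, rose from 3.18, 4.36, 5.15 and 1.66 CPM to 9.27, 11.3, 11.7 and 8.98 CPM in control, or 2.87-fold (adjusted p = 0.0128, edgeR), and by 4.50-fold in HIRA KO (adjusted p = 0.00197). Msr1, a receptor for modified lipoproteins, rose by 2.41-fold and 3.04-fold (adjusted p = 0.00125 and 0.000255), and Cd68, a lysosomal glycoprotein, by 2.27-fold and 3.03-fold (adjusted p = 0.00549 and 0.00078). The other 3 did not pass the test in either genotype with all libraries. Mrc1, the mannose receptor, which sinusoidal endothelial cells also carry, stood at 47.4, 50.8, 38.5 and 32.3 CPM in control before and at 42.2, 43.6, 33.5 and 34.0 CPM after, and the groups overlapped. Its log2 fold change was -0.14 ± 0.16 in control and 0.15 ± 0.16 in HIRA KO (adjusted p = 0.659 and 0.579). Cd163, the receptor for haptoglobin-bound haemoglobin, had log2 fold changes of 0.79 ± 0.44 and 0.99 ± 0.45 (adjusted p = 0.314 and 0.176). Cd14, the co-receptor for lipopolysaccharide, had 0.75 ± 0.40 and 0.60 ± 0.39 (adjusted p = 0.279 and 0.359). Without the libraries that stand apart Cd14 passed in both genotypes (log2 0.75 and 1.46, adjusted p = 0.0444 and 0.0185), and without HIRA KO before library 1 alone it passed in HIRA KO (log2 1.32, adjusted p = 0.00911).

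The genes that maintain the macrophage lineage rose. Spi1 stood at 5.27, 4.79, 5.44 and 2.96 CPM in control before and at 12.9, 10.9, 11.5 and 10.1 CPM after, a rise of 2.45-fold (log2 1.30 ± 0.17, adjusted p = 0.000219, edgeR). In HIRA KO it rose from 4.87, 4.73, 3.74 and 4.26 CPM to 13.2, 14.6, 12.9 and 16.2 CPM, or 3.23-fold (log2 1.69 ± 0.17, adjusted p = 3.97e-05). Spic, the Spi-C factor of iron-recycling macrophages, rose by 2.45-fold and 3.70-fold (adjusted p = 0.00558 and 0.000525). Csf1r rose least of the 3, by 1.60-fold in control (adjusted p = 0.0418) and 2.06-fold in HIRA KO (adjusted p = 0.00391). Its control libraries overlapped between times, since control before library 3 stood at 71.0 CPM and control after library 4 at 68.2 CPM, and its call held in 2 of 8 fits with a library left out. Without the libraries that stand apart Csf1r was called in neither genotype (log2 0.68 and 0.95, adjusted p = 0.105 and 0.141).

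Adhesion and pan-leukocyte genes rose in all 6 cases in control. Adgre1, which encodes F4/80, rose from 15.9, 18.1, 21.0 and 7.69 CPM to 32.6, 36.0, 31.8 and 26.3 CPM, or 2.02-fold (adjusted p = 0.00561, edgeR), and by 2.48-fold in HIRA KO (adjusted p = 0.00115). Itgb2 (the shared beta chain of leukocyte integrins), Laptm5 (a lysosomal protein of blood cells) and Aif1 (the actin-binding protein IBA1) also rose in both genotypes, by 2.03, 2.04 and 2.18-fold in control and by 2.06, 2.21 and 3.17-fold in HIRA KO. The call of Itgb2 held in 4 of 8 fits with a library left out in control and in 5 in HIRA KO, and that of Laptm5 in HIRA KO was lost without the libraries that stand apart (adjusted p = 0.0585). Itgam, the CD11b chain found on monocytes and neutrophils and low in Kupffer cells, stood at 0.298, 0.484, 0.458 and 0.474 CPM in control before and at 1.503, 0.974, 1.58 and 1.49 CPM after, on 6 to 31 counts a library. It rose by 3.22-fold in control (log2 1.69 ± 0.43, adjusted p = 0.0172), a call lost without control before library 1 (adjusted p = 0.060). In HIRA KO it stood at 1.75, 0.934, 0.408 and 1.00 CPM before and at 2.54, 2.66, 0.806 and 1.503 CPM after, the groups overlapped, and the log2 fold change was 0.86 ± 0.39 (adjusted p = 0.165). Ptprc, the leukocyte phosphatase CD45, was higher by 1.08 ± 0.29 on the log2 scale in control (adjusted p = 0.0271) and by 0.85 ± 0.29 in HIRA KO (adjusted p = 0.0671). Its call in control held in 3 of 8 fits with a library left out. It passed in HIRA KO without the libraries that stand apart (log2 1.49, adjusted p = 0.00215) and without HIRA KO before library 1 alone (log2 1.09, adjusted p = 0.0251). Whether Itgam and Ptprc differed between genotypes was tested by the interaction, with adjusted p of 0.815 and 0.948.

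The ITAM adaptors, which pass signals from activating receptors, rose. Tyrobp (DAP12) stood at 9.80, 11.8, 12.8 and 5.98 CPM in control before and at 24.2, 20.9, 22.3 and 21.5 CPM after, and in HIRA KO at 9.63, 8.40, 7.61 and 8.02 CPM before and 22.7, 25.9, 27.1 and 37.01 CPM after. It rose by 2.20-fold in control (adjusted p = 0.00126, edgeR) and 3.34-fold in HIRA KO (adjusted p = 6.09e-05). Fcer1g, the common gamma chain of Fc receptors, rose by 2.24-fold and 2.84-fold (adjusted p = 0.000463 and 6.09e-05). Trem2, a lipid receptor that signals through DAP12, had log2 fold changes of 1.29 ± 0.43 in control (adjusted p = 0.0662) and 1.52 ± 0.41 in HIRA KO (adjusted p = 0.0213). Without the libraries that stand apart Trem2 passed in control (adjusted p = 0.0104) and not in HIRA KO (adjusted p = 0.0516), and it also passed in control without control before library 3 (log2 1.68, adjusted p = 0.030).

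Among lysosomal and effector genes, 6 of 7 rose in each genotype. Lyz2 (lysozyme), Ctss (cathepsin S, which trims the class II invariant chain), Cybb (the phagocyte oxidase subunit), Slc11a1 (a metal transporter of phagosomes) and Ly86 (MD-1, the partner of RP105) rose by 1.84, 1.99, 2.38, 1.94 and 2.55-fold in control and by 2.03, 2.43, 2.30, 2.38 and 3.21-fold in HIRA KO. The call of Lyz2 held in 2 of 8 fits with a library left out in control and in 6 in HIRA KO. Chil3, a chitinase-like protein of alternatively activated macrophages and neutrophils, had 1 to 4 counts a library before regeneration in both genotypes, so that no fold is given. It had 53 to 77 counts a library in control after and 29 to 275 in HIRA KO after, and it passed the test in both (adjusted p = 0.000622 and 0.000224), also without the libraries that stand apart in HIRA KO (adjusted p = 0.00074). Reads of Chil3 and Lyz2 can be shared with close paralogs, and how the counting treated them is not given in the sources used here. Gpnmb, a glycoprotein of lipid-laden macrophages, did not pass, with log2 fold changes of 0.71 ± 1.21 and 1.07 ± 1.01 (adjusted p = 0.804 and 0.548), and in control the sign turned without control after library 4, where it stood at 1.97 CPM against 0.218 to 0.516 CPM in the others.

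The MHC class II genes had negative log2 fold changes in both genotypes, and none passed the edgeR test with all 16 libraries. Cd74 stood at 102, 98.1, 89.9 and 48.1 CPM in control before and at 51.8, 39.2, 34.9 and 27.9 CPM after. H2-Ab1, a beta chain, stood at 47.7, 43.6, 37.1 and 23.4 CPM before and at 21.4, 17.0, 14.6 and 11.6 CPM after, and its groups did not overlap. H2-Aa, an alpha chain, stood at 50.6, 48.4, 40.1 and 23.97 CPM before and at 24.9, 15.3, 14.2 and 12.9 CPM after. H2-Eb1, another beta chain, stood at 33.9, 30.3, 25.1 and 14.9 CPM before and at 17.0, 12.7, 9.97 and 7.15 CPM after. In Cd74, H2-Aa and H2-Eb1 control before library 4 was lower than control after library 1, whereas the other 3 libraries before lay above all libraries after. The log2 fold changes of Cd74, H2-Aa, H2-Ab1 and H2-Eb1 were -1.14 ± 0.48, -1.28 ± 0.51, -1.24 ± 0.47 and -1.16 ± 0.50.

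None of the 4 class II genes passed the test in control with all libraries (edgeR, adjusted p = 0.170, 0.146, 0.120 and 0.174), and all 4 had an unadjusted p under 0.05. The fit shares its spread over all groups. All 4 were called lower by DESeq2 and in edgeR without the HIRA KO libraries that stand apart (adjusted p between 0.00382 and 0.0254), and 3 of them when only the control libraries were fitted. In these fits 5283, 6491 and 6079 of all genes had an unadjusted p under 0.05 in control, against 5415 in edgeR with all libraries. Without the libraries that stand apart 3784 genes were called in either direction, against 2350 with them. The shares of all genes called lower in these fits were not counted. In HIRA KO livers the class II log2 fold changes were -0.52 ± 0.48, -0.49 ± 0.50, -0.28 ± 0.46 and -0.59 ± 0.48 (adjusted p between 0.481 and 0.749), and the groups overlapped. Without libraries 1 and 2 of each time, that of H2-Ab1 was 0.051.

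The summed level of the 5 resident genes was 194, 211, 261 and 91.0 CPM in control before and 661, 668, 714 and 565 CPM after. That of the 4 class II genes was 235, 220.4, 192 and 110.3 CPM before and 115, 84.1, 73.7 and 59.6 CPM after. The ratio of the resident sum to the class II sum ran from 0.825 to 1.36 in control before and from 5.75 to 9.69 after, so that it did not overlap. In HIRA KO the ratio was 0.361, 0.365, 1.42 and 1.53 before and 3.14, 1.78, 8.66 and 9.22 after, and it was lowest at both times in libraries 1 and 2. The general genes summed to between 258 and 588 CPM in control before and between 719 and 922 CPM after. Resident genes made up between 19.8% and 25.1% of the summed member CPM in control before and between 38.9% and 42.6% after. In HIRA KO this share ran from 13.1% to 24.4% before and from 28.7% to 41.8% after, again lowest in libraries 1 and 2.

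**Figure D3:**
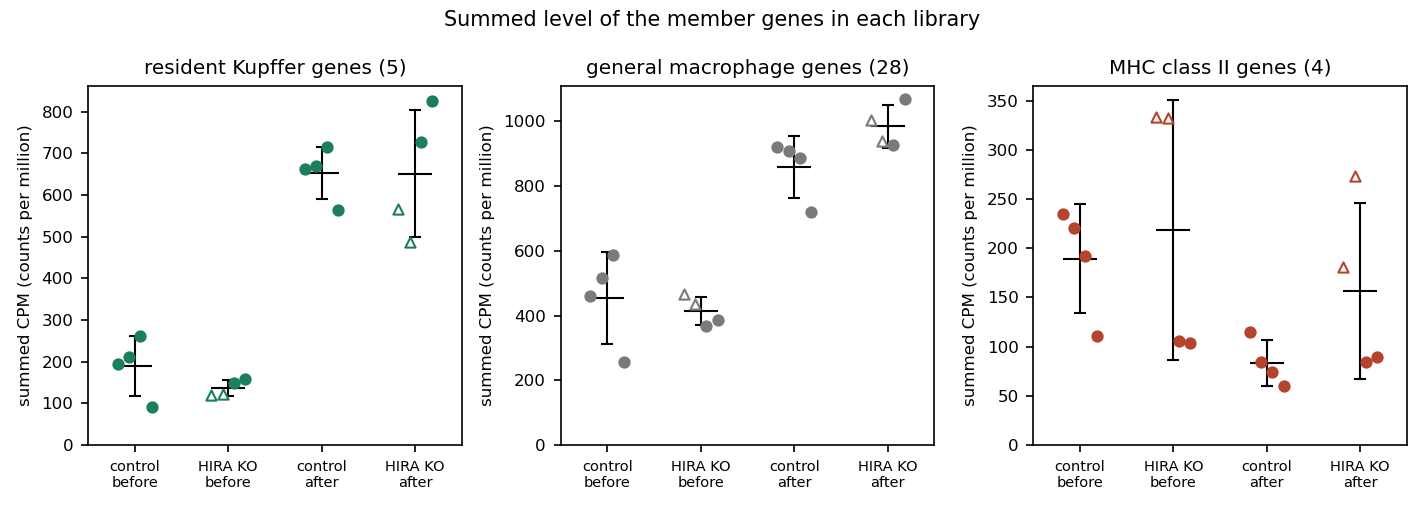
Summed CPM (y axis) of the resident, general and MHC class II genes in each library of the 4 groups, with the mean and SD as black bars and HIRA KO libraries 1 and 2 as open triangles. Resident and general sums after regeneration lie above all sums before it, while class II sums in control lie between 110.3 and 235 CPM before and between 59.6 and 115 CPM after.

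Control before library 4 was the lowest of its group for all members but Itgam, Gpnmb and Chil3, with 0.0426% of its counts in members against 0.0877% to 0.0985% in the others. Without it, 25 members were called higher in control, and 4725 of all genes had an unadjusted p under 0.05, against 5415 with all libraries. The part of this library in the level of single genes was not tested.

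HIRA KO was compared with control at each time to ask whether loss of HIRA in hepatocytes changed the macrophage genes. Before regeneration none of the 37 members passed the test in edgeR, in DESeq2 or in limma on FPKM, and 0.0348% of all genes tested were called higher and 0.00434% lower by edgeR (0.0391% in all). In no member did the groups separate, against 3.54% of all genes upward and 4.53% downward. Itgam and C1qc had an unadjusted p under 0.05, and 3031 of all genes did. The median log2 fold change was -0.46 over the resident genes, -0.05 over the general genes and 0.22 over the class II genes. Without the libraries that stand apart, these medians were -0.36, -0.25 and -0.87. Itgam had a log2 fold change of 1.26 ± 0.44 (adjusted p = 0.252), on 6 to 33 counts a library.

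After regeneration none of the members passed either, by the same 3 tools, with 0.200% of all genes called higher and 0.291% lower by edgeR (0.491% in all). Gpnmb, Fcer1g, Trem2 and Cd68 had an unadjusted p under 0.05, as did 3629 of the 23018 genes tested. The median log2 fold change was -0.05 over the resident genes, 0.25 over the general genes and 0.96 over the class II genes, and without the libraries that stand apart it was 0.28, 0.16 and 0.16. In Fcer1g and Ctss all HIRA KO libraries lay above all control libraries, which held for 3.65% of all genes, and in no member did all lie below, which held for 4.45%. Fcer1g stood at 17.4, 16.3, 16.3 and 14.5 CPM in control and at 20.6, 21.1, 17.7 and 24.2 CPM in HIRA KO (log2 fold change 0.37 ± 0.16, adjusted p = 0.263).

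An interaction term tested whether the effect of HIRA KO changed with regeneration. No member and no other gene passed in edgeR (smallest adjusted p = 0.181), and 2 members and 1568 of all genes had an unadjusted p under 0.05. DESeq2 called 67 genes, none of them a member. The interaction was positive in 33 of 37 members, among them the 4 class II genes, whose log2 fold changes were less negative in HIRA KO. Its median was 0.36 over the members on the log2 scale, against -0.02 over all genes. All members were measured in the same libraries, so that their signs are not independent. Among the positive ones, leaving out a library could turn the sign of Cd163, Chil3, Gpnmb, Itgb2, Laptm5, Lyz2 and Trem2. The interaction was 0.56 ± 0.26 for C1qc (adjusted p = 0.714) and 0.60 ± 0.26 for Tyrobp (adjusted p = 0.690).

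HIRA KO libraries 1 and 2 differed from the other 6 libraries of the same time in a part of the members. Each HIRA KO group held 2 libraries of each deletion approach. Whether libraries 1 and 2 shared an approach cannot be read from the labels and was not tested. Both lay above all others in 9 members before and in 11 after regeneration, where 14.9% and 12.5% of all genes did so, and below all others in 1 and in 3 members, where 12.2% and 12.7% of all genes did so. All 4 class II genes were among those above at both times. Before regeneration Cd74 stood at 145 and 152 CPM in HIRA KO libraries 1 and 2 and at 49.3 and 46.7 CPM in libraries 3 and 4. After regeneration it stood at 90.2 and 113 CPM against 34.4 and 36.8 CPM. Without libraries 1 and 2, the HIRA KO log2 fold changes of Cd74, H2-Aa, H2-Ab1 and H2-Eb1 went from 0.22, 0.23, 0.04 and 0.35 to -0.82, -0.92, -1.01 and -0.71 before regeneration, with no call in either case.

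Gpnmb and Trem2 were also split within HIRA KO. Gpnmb stood at 4.92, 3.401, 0.340 and 0.188 CPM before and at 10.4, 7.15, 0.664 and 0.557 CPM after, against 0.199 to 0.687 CPM and 0.218 to 1.97 CPM in control. Its HIRA KO log2 fold change was 2.15 ± 1.16 before (adjusted p = 0.452) and 2.51 ± 1.09 after (adjusted p = 0.281), and -0.91 and -0.42 without libraries 1 and 2. Trem2 stood at 1.38, 1.27, 0.544 and 0.564 CPM before and at 3.94, 3.77, 1.33 and 1.84 CPM after, with log2 fold changes of 0.67 ± 0.44 and 0.91 ± 0.39 (adjusted p = 0.545 and 0.268), and -0.092 and 0.12 without libraries 1 and 2. Lyz2 and Itgb2 also lay above at both times. Cd163 moved the other way before regeneration, at 4.18 and 5.47 CPM in libraries 1 and 2 against 14.6 and 19.1 CPM in libraries 3 and 4. Of the resident genes, Clec4f and Timd4 lay below all other libraries after regeneration, and none lay above at either time.

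Markers of several other cells moved with these libraries, and those of others did not. Before regeneration the summed CPM of 10 dendritic cell genes was 15.6 and 19.7 in HIRA KO libraries 1 and 2 against 10.9 to 14.0 in the other 6, that of 10 B cell genes 11.7 to 16.1 against 4.68 to 7.96, and that of 14 T and NK cell genes 10.5 to 12.0 against 3.97 to 8.82. The 9 monocyte genes summed to 19.1 and 27.1 CPM against 8.52 to 14.9 CPM, and the 12 stellate cell genes to 541 and 724 CPM against 254 to 307 CPM. The 10 cholangiocyte genes summed to 30.3 and 161 CPM against 13.1 to 20.7 CPM. After regeneration the dendritic cell sums were 13.2 and 15.1 CPM against 7.30 to 13.0 CPM, the B cell sums 16.4 and 17.4 CPM against 11.6 to 16.0 CPM, and the cholangiocyte sums 57.8 and 78.7 CPM against 13.6 to 30.7 CPM. The monocyte sums (45.0 and 64.5 CPM against 40.2 to 56.2 CPM), the T and NK cell sums (7.93 and 11.9 CPM against 7.26 to 12.9 CPM) and the stellate cell sums (415 and 532 CPM against 203 to 451 CPM) overlapped after regeneration. The 12 hepatocyte genes summed to 153470 and 171440 CPM before regeneration against 112940 to 143930 CPM, and overlapped after it. Proliferation genes did likewise (15.5 and 21.9 CPM against 4.38 to 10.9 CPM before). A sum is set mostly by its most abundant genes. In HIRA KO against control before, with all libraries, 5 of the 12 hepatocyte genes had a positive log2 fold change (median -0.09). Neutrophil, endothelial cell and erythroid sums overlapped at both times. The sums of lipid-associated macrophage genes lay above (2256 and 2260 CPM against 1834 to 2103.5 CPM before, 3095 and 3097 CPM against 2518 to 2946 CPM after). The sums of Fc receptor and C1q partner genes lay below (646 and 668 CPM against 925 to 1136 CPM before, 493 and 661 CPM against 729 to 1145 CPM after). Single genes of these lists did not all go one way in HIRA KO against control with all libraries. Of 14 lipid-associated genes 9 were positive before and 8 after (median log2 fold change 0.19 and 0.13). Of 8 Fc receptor and C1q partner genes 4 and 3 were positive (median 0.03 and -0.01). The part of any of these cells in the levels of the class II genes, Gpnmb and Trem2 was not tested.

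**Figure D4:**
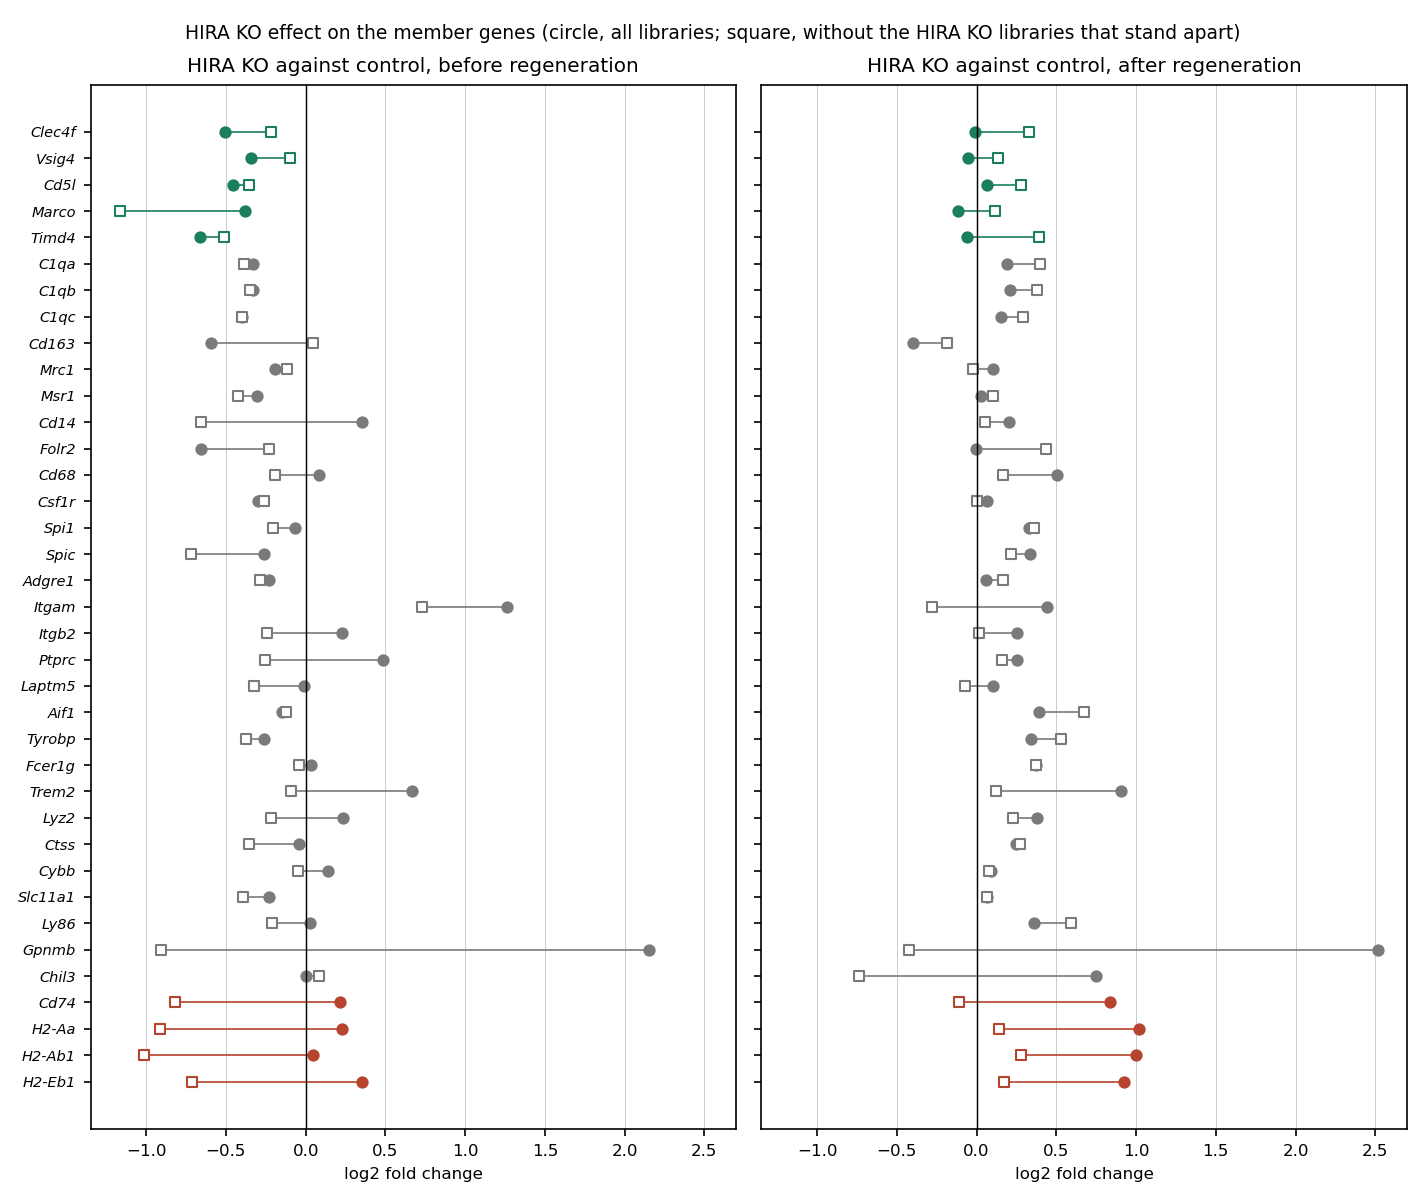
Log2 fold change of HIRA KO against control (x axis) for each of the 37 genes before (left) and after regeneration (right), with all libraries (circles) and without HIRA KO libraries 1 and 2 (squares), resident genes in green, general genes in grey and class II genes in red. Before regeneration the class II circles lie between 0.04 and 0.35 and the squares between -1.01 and -0.71, and the line of Gpnmb is the longest in both panels.

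Other genes of the same pathways were examined as lists. The counts of each list below stand beside the shares of all genes tested. These were 6.04% higher and 4.17% lower in control, and 6.48% and 5.53% in HIRA KO. Of 26 further Kupffer cell genes, 16 rose and 1 fell in control and 17 rose in HIRA KO, with the smallest p in both for Il18bp, which encodes an inhibitor of interleukin 18 (log2 1.53 ± 0.17 and 1.58 ± 0.18, adjusted p = 0.000102 and 7.47e-05, edgeR).

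Of 12 genes for the processing and control of MHC class II, 2 rose in each genotype and none fell. These were Lgmn and Ifi30, a lysosomal protease and a lysosomal thiol reductase, with log2 fold changes of 1.15 ± 0.13 and 1.26 ± 0.16 in control. Ciita, the master regulator of class II transcription, had -0.71 ± 0.52 in control (adjusted p = 0.456) and -0.50 ± 0.50 in HIRA KO (adjusted p = 0.578), on 16 to 104 counts a library. H2-DMa, H2-DMb1 and H2-DMb2, which form the complex that loads peptides onto class II, had 0.085 ± 0.37, -0.21 ± 0.33 and 0.90 ± 0.39 in control (adjusted p = 0.930, 0.786 and 0.171). The list's median was 0.59 in control livers, against 0.23 in HIRA KO livers.

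Of 14 genes of the CSF1 and TGFB niche, 13 were tested, and 1 rose and 1 fell in control (3 and 1 in HIRA KO), with Csf2rb, the shared receptor chain for GM-CSF, at the smallest p in both. The control counts lay near the shares of all genes tested, 6.04% higher and 4.17% lower. The ligands of CSF1R did not pass, with log2 fold changes in control of 0.49 ± 0.33 for Csf1 and -0.28 ± 0.39 for Il34. Of 14 genes of lipid-associated macrophages 6 rose in control and 3 in HIRA KO, with the smallest p for Cd9 in control (1.22 ± 0.19) and for Lgals3 in HIRA KO (2.22 ± 0.26). Of 8 Fc receptor and C1q partner genes 2 rose in control and 1 in HIRA KO, with the smallest p for C3ar1, the receptor for complement C3a (0.93 ± 0.23 and 0.99 ± 0.23).

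Markers of the other cells that a piece of liver holds were set beside the members. Of all genes tested, 6.04% were higher and 4.17% lower in control, and 6.48% and 5.53% in HIRA KO. Monocyte genes rose in 7 of 9 cases in control and in 6 in HIRA KO, among them Treml4 (log2 1.48 ± 0.21 and 1.73 ± 0.21), and their summed level ran from 8.52 to 14.9 CPM in control before to 40.2 to 43.8 CPM after. Of 13 neutrophil genes 3 rose in each genotype, with summed levels of 12.5 to 20.4 CPM in control before and 25.4 to 34.6 CPM after, and with Elane at 0 in all control libraries before. Elane had the smallest p in control, on 2 to 9 counts a library after regeneration, and Ngp in HIRA KO, on 0 to 2 counts before and 4 to 32 after. Of 10 B cell genes 2 rose in each genotype, with the smallest p for Bank1 in control and for Cr2 in HIRA KO. Of 10 dendritic cell genes none passed in control and 1 rose and 1 fell in HIRA KO, with 2 and 3 at an unadjusted p under 0.05. The gene that fell was Cd209a (-1.86 ± 0.50), and Zbtb46 had the smallest p in control (-0.60 ± 0.19, adjusted p = 0.0593). Of 14 T and NK cell genes none passed in control and 1, Gzmb, in HIRA KO, with 4 and 2 at an unadjusted p under 0.05, and Cd2 had the smallest p in control (1.33 ± 0.51, adjusted p = 0.110). The part of monocytes and neutrophils in the rise of the general macrophage genes was not tested.

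Of 11 endothelial cell genes 1 rose and 2 fell in each genotype, with Oit3 at the smallest p in both (-0.89 ± 0.18 and -0.72 ± 0.18). The shares of all genes tested were 6.04% higher and 4.17% lower in control, and 6.48% and 5.53% in HIRA KO. None of 12 stellate cell and 10 cholangiocyte genes passed in either genotype (edgeR), with 5 and 2 stellate cell genes and 0 and 4 cholangiocyte genes at an unadjusted p under 0.05. Hhip had the smallest p of the stellate cell genes in both (-1.08 ± 0.34 and -0.998 ± 0.34, adjusted p = 0.0513 and 0.0634). Prom1 had the smallest p of the cholangiocyte genes in control (2.29 ± 1.09, adjusted p = 0.229). Of 12 hepatocyte genes 3 fell in control and 4 in HIRA KO, with the smallest p for G6pc (-2.86 ± 0.27 and -2.15 ± 0.26). Of 6 erythroid genes 1, Klf1, fell in each genotype. All 8 proliferation genes rose in both genotypes, with the smallest p for Mki67 in control (5.22 ± 0.81) and for Cdk1 in HIRA KO (3.55 ± 0.77), with summed levels of 4.38 to 10.9 CPM in control before and 39.7 to 306 CPM after.

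**Figure D5:**
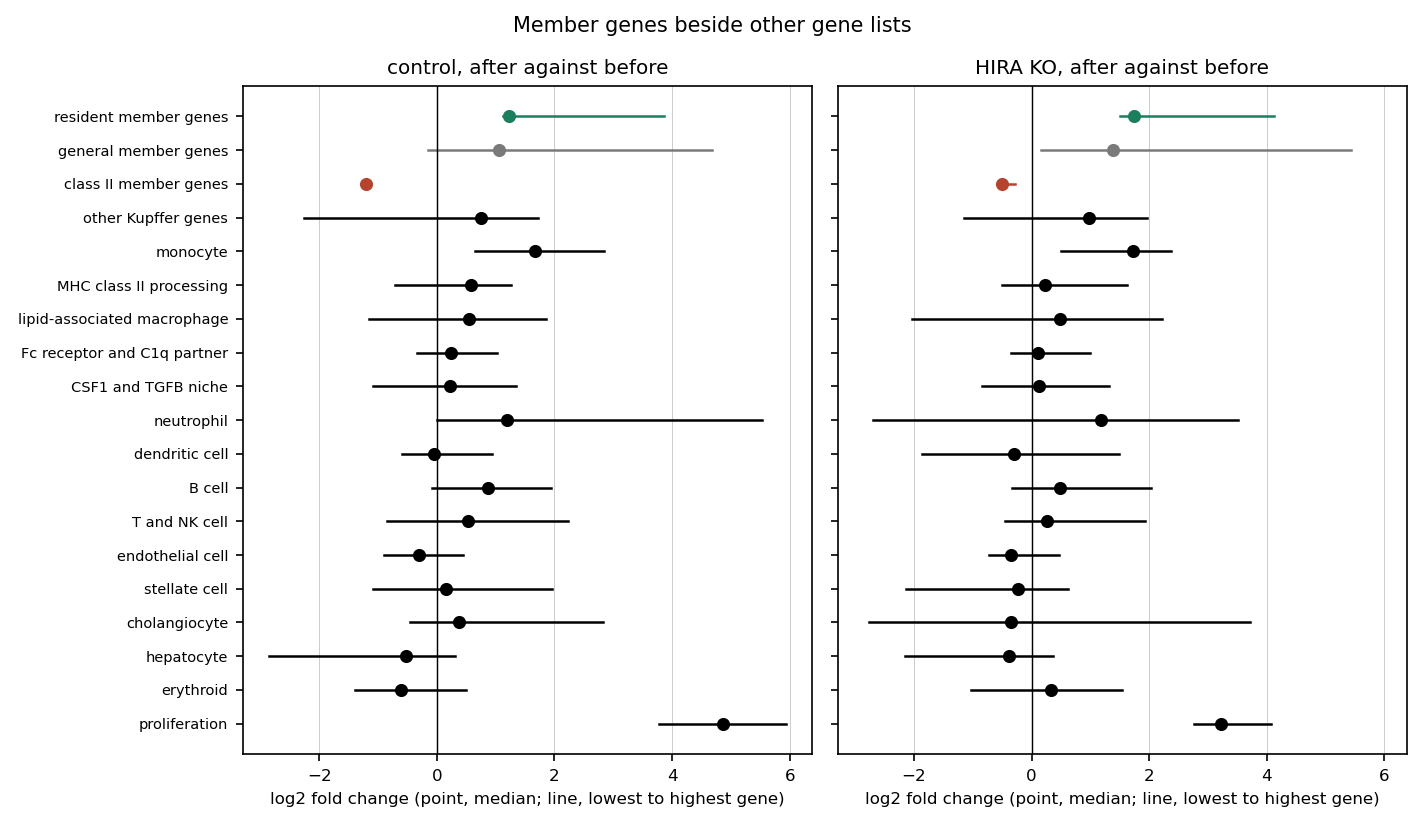
Median log2 fold change after against before regeneration (point) with the lowest and highest gene (line) for the member genes and for 16 other gene lists in control (left) and HIRA KO livers (right), on a common x axis. The resident and general genes have medians of 1.22 and 1.06 in control, next to 1.66 for monocyte genes, and the class II genes have -1.20, with fitted values shown also for genes at 0 before regeneration such as Elane.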

How the data were processed

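The labels name mm10 and the tools STAR, HTSeq and Cufflinks, whereas the methods of the study name STAR and HOMER for the counts. Which counting tool made the table, its strand setting and the annotation release are not given in the sources used here. The deposited whole-number counts per gene were used as they are. The deposited FPKM were used for levels between genes, with empty cells read as 0, and the tool that made them is not given in the sources used here. Columns name the group and a running number, which is in no label, so that each column was a replicate of its group only. Per the study's methods a group holds 2 mice of each deletion approach. Which mouse gave a column cannot be read from it, so libraries taken before and after from the same mouse were treated as independent.

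Genes with at least 10 counts over all 16 libraries were tested (23018 genes) with edgeR (version 4.0.16, R 4.3.3) in 1 robust quasi-likelihood fit of 4 group means on TMM-scaled counts, with Benjamini-Hochberg adjustment over all genes and a threshold of 0.05. Replicates of a group differed beyond sampling noise in all 24 pairs. SE was derived from the fit as log2 fold change over the root of F. DESeq2 (1.42.0) and limma (3.58.1) on log2(FPKM + 1) and log2(FPKM + 0.1) were alternatives, beside other scalings, filters and left-out libraries. The offset of 1 understates changes of low genes more than that of 0.1 does. All members were named, and from each of 16 other lists (189 genes) the gene with the smallest p in each regeneration comparison, further ones being chosen after their values were seen. Some genes that this rule names are not reported here. Members and lists were chosen with earlier results of these data known. The lists, written from general knowledge, were other Kupffer genes, CSF1 and TGFB niche, MHC class II processing, lipid-associated macrophage, Fc receptor and C1q partner, monocyte, neutrophil, dendritic cell, B cell, T and NK cell, endothelial cell, stellate cell, cholangiocyte, hepatocyte, proliferation and erythroid.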

Additional observations from a re-analysis of the deposited data

Results flagged for a closer look

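In groups of 4 libraries, 160 sets of values (37 members and 3 sums in 4 groups) were examined for a single library far from the other 3, and 11 were found, where chance gives about 1 in 20. Control before library 4 was the lowest for Cybb at 6.57 CPM (others 16.1 to 17.1), for Msr1 at 5.56 CPM (11.0 to 12.0), for Slc11a1 at 4.97 CPM (10.7 to 11.3) and for Spic at 0.888 CPM (1.79 to 1.94). Control after library 4 was the lowest for C1qc at 69.6 CPM (85.1 to 88.0), for Vsig4 at 39.9 CPM (55.3 to 57.5) and for the summed general genes at 719 CPM (888 to 922), and the highest for Gpnmb at 1.97 CPM (0.218 to 0.516). Itgam was low in control before library 1 at 0.298 CPM (0.458 to 0.484) and in control after library 2 at 0.974 CPM (1.49 to 1.58). Trem2 was high in control before library 3 at 1.03 CPM (0.414 to 0.484). The cause was not tested for any of them.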

How the results depend on the processing

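No paired analysis was possible because the columns carry no replicate number, mouse or deletion approach of the labels. No member was called in HIRA KO against control or in the interaction under any alternative. Members called higher ranged from 22 to 29 in control and from 24 to 29 in HIRA KO with 1 library left out, and 22 of 28 and 24 of 27 calls held in all 8 such fits. Members called lower in control went from 0 to 4 with DESeq2, 3 with only the compared groups and 4 without the HIRA KO libraries that stand apart. All genes called in control regeneration (2350) were 1335 with FPKM + 1 unfiltered, 3784 without the apart libraries and 1519 to 2324 with 1 library left out. In HIRA KO regeneration (2764) they were 1340 with only the compared groups and 1636 to 2784. For HIRA KO before (9) they were 375 with DESeq2, 36 without the filter, 4 and 0 with FPKM + 1 and + 0.1, 5 without the apart libraries and 1 to 26. For HIRA KO after (113) they were 910 with DESeq2, 51 without TMM, 227 with 10 counts in 4 libraries, 0 with only the compared groups, 56, 35 and 58 with FPKM + 1, FPKM + 0.1 and FPKM + 1 unfiltered, 19 without the apart libraries and 5 to 503. The interaction (0) gave 67 with DESeq2, 1 without the filter, 2 with FPKM + 1 unfiltered and 0 to 7. Without the apart libraries the HIRA KO medians before were -0.87 for class II genes, and after 0.28 for resident and 0.16 for class II genes, and the general median in HIRA KO regeneration was 1.17 with FPKM + 1, with and without its filter. Without the apart libraries the log2 fold change changed sign, always without a call, as follows. In HIRA KO regeneration Mrc1 was -0.047 and H2-Ab1 0.051. In HIRA KO before, Cd163 was 0.048, Trem2 -0.092, Gpnmb -0.91, Cd74 -0.82, H2-Aa -0.92, H2-Ab1 -1.01 and H2-Eb1 -0.71. At that time Cd14 was -0.66, Cd68 -0.19, Itgb2 -0.24, Ptprc -0.26, Fcer1g -0.044, Lyz2 -0.22, Cybb -0.050 and Ly86 -0.21. In HIRA KO after, Itgam was -0.28, Gpnmb -0.42, Cd74 -0.11, Mrc1 -0.024, Laptm5 -0.073 and Chil3 -0.74. Resident genes and Folr2 turned positive at that time, with Clec4f at 0.33, Vsig4 at 0.13, Marco at 0.11, Timd4 at 0.39 and Folr2 at 0.43. In the interaction Cd14 was 0.71, Ptprc 0.41, Cybb 0.12, Cd163 -0.23 and Chil3 -0.82. With 1 library left out, Gpnmb in control regeneration ranged from -0.31 (without control after library 4) to 1.02, and H2-Ab1 in HIRA KO regeneration from -0.73 to 0.065 (without HIRA KO before library 1). In HIRA KO before, Cd74 ranged from -0.073 to 0.44, H2-Aa from -0.072 to 0.48 and H2-Ab1 from -0.30 to 0.28, all negative without HIRA KO before library 1 or 2, and H2-Ab1 also without control before library 4 (-0.14). The calls in control were lost (adjusted p 0.0558 to 0.101) for Timd4 without any library but control before 3, Csf1r without any but control before 3 or 4, Lyz2 without any but control before 3 or control after 4, Ptprc without control before 1, 2 or 4 or control after 2 or 3, Itgb2 without control before 1 or control after 1, 2 or 3, and Itgam without control before 1. Those in HIRA KO were lost (0.0550 to 0.0715) for Trem2 without HIRA KO before 3 or 4 or after 1 or 2, Itgb2 without before 3 or 4 or after 1, and Lyz2 without before 3 or 4. Without TMM the median of all genes in HIRA KO regeneration was 0.14, below every called member. The cause of these differences was not tested. Totals of 15103059 to 21738619 counts left Chil3, Itgam, Gpnmb and Trem2 on few counts before regeneration, which limits their precision.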
